A study of Capra hircus with 20 samples.

Results

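The transcripts described here are newly assembled lncRNAs of goat fat cells that the deposited table types as intronic. The members were selected on their abundance, as those whose FPKM, averaged across the 20 libraries, came to 1 or more, and 1080 of 9527 intronic lncRNAs met this. FPKM gives the fragments of a transcript relative to its length and to the mapped reads of the library. Cells came from 5 male Jianzhou Daer goats aged 7 days, and every culture was at passage 3. IMPA and SPA are preadipocytes isolated from the longissimus dorsi muscle and from subcutaneous fat, taken at day 0, and IMA and SA are the corresponding cells after 3 days in induction medium with oleic acid. Each of the 4 groups held 5 libraries made from total RNA with a strand-specific method. The goat behind each replicate number is not named, so p values measure the spread between these cultures, which may be partly technical. The published read statistics show a higher alignment rate and GC content for IMPA than for the other groups. They also show a lower alignment rate in every SA library than in any SPA library. Every IMPA library had more mapped reads than any library of the other groups. What part these differences have in the comparisons of the groups was not tested.

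An intronic lncRNA lies within an intron of another gene. Such a transcript can come from a promoter of its own, or it can be a piece of a host pre-mRNA or of an excised intron that an assembler has joined into a separate transcript. Introns are normally cut out by the spliceosome and then debranched and degraded in the nucleus, so RNA of unspliced origin follows both the transcription of the host gene and the speed of these later steps. Libraries from total RNA hold nuclear and unpolyadenylated RNA as well as mature mRNA. The authors kept only assembled transcripts with several exons, so each member was assembled with a splice junction. What this means for the origin of the members was not tested. Neither sequences nor positions nor host genes of these transcripts were analysed here, so each member is named by its identifier.

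The members were 11.3% of the intronic lncRNAs and 5.87% of the 18414 transcripts tested. They belonged to 949 loci, of which 850 held 1 member and 99 held the other 230 members, with at most 9 in 1 locus. Most were scarce. The median of their mean FPKM was 1.76, with quartiles of 1.25 and 3.16, and 617 members lay under 2 FPKM while 39 reached 20 FPKM. The 10 most abundant members held 19.3% of the FPKM of all members, and the top 100 held 57.6%. Just inside the threshold stood LNC_011678 at 1.0012 FPKM, LNC_004777 at 1.0018 and LNC_009578 at 1.0019, and just outside it LNC_006001 at 0.9993, LNC_001450 at 0.9988 and LNC_007544 at 0.9987. A further 6723 intronic lncRNAs had a mean from 0.1 to under 1 FPKM, and 1724 a lower one.

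The threshold on a mean lets in members that are abundant in a single group. A group mean of at least 1 FPKM was reached in all 4 groups by 665 members (61.6%) and in only 1 group by 14. A member that passed through its high group had to differ, which limits what the counts of called members below can show. For this reason the counts of each comparison are also given over the 665. That filter drops members low in 1 group, so the change itself decides part of it. No share of all transcripts under the same filter is given beside these counts, so they describe the 665 alone. Listed at 0 in at least 1 library were 125 members, and 19 were at 0 in all 5 libraries of a group. Members also varied between replicates, with a median coefficient of variation within a group of 16.1% in IMPA, 20.1% in IMA, 20.2% in SPA and 19.3% in SA.

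The class as a whole was most abundant in SA and IMPA and least abundant in SPA. The summed FPKM of the members was 5259, 5224, 5432, 4992 and 5317 in the IMPA libraries and 4975, 4470, 5238, 4092 and 4917 in the IMA libraries. In the SPA libraries it was 4284, 4759, 3684, 4379 and 4050, and in the SA libraries 5310, 5746, 6062, 5687 and 5575. Every SA library was thus above every SPA library, every IMPA library was above every SPA library, and every SA library was above every IMA library, whereas IMPA and IMA overlapped. The group means were 5245 ± 162 (SD, n = 5) in IMPA, 4738 ± 455 in IMA, 4231 ± 399 in SPA and 5676 ± 273 in SA, which gives ratios of 0.903 for IMA to IMPA, 1.34 for SA to SPA, 1.24 for IMPA to SPA and 0.835 for IMA to SA. These levels are given with no test. In bulk RNA, fewer cells that make a transcript and less of it per cell cannot be told apart.

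**Figure D1:**
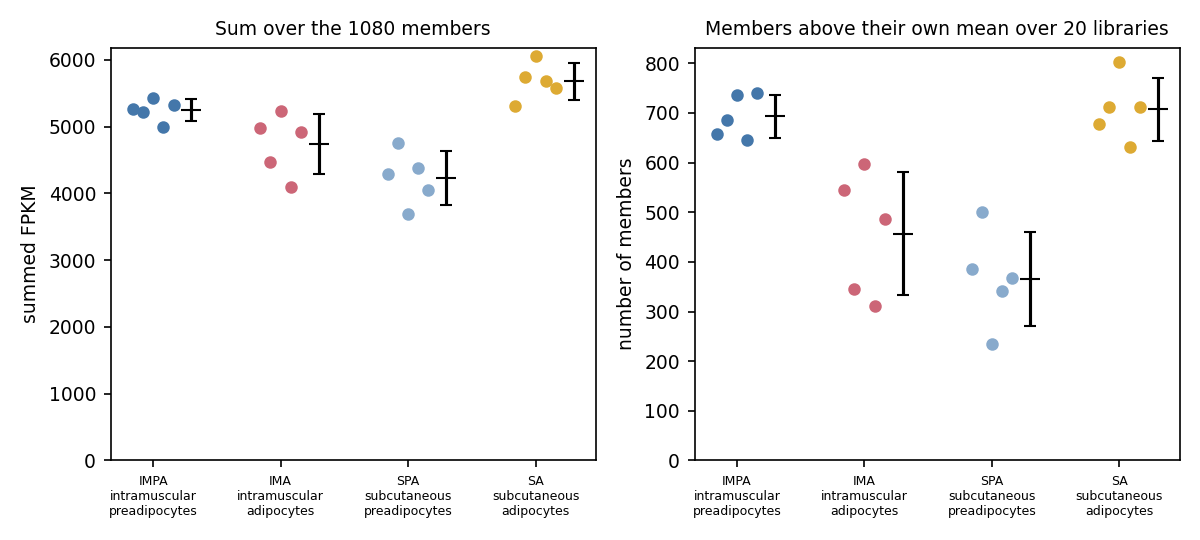
Summed FPKM of the 1080 members (left) and the number of members above their own mean over the 20 libraries (right), with 1 point per library and bars for the mean and SD of 5 libraries per group. The SA libraries lie between 5310 and 6062 summed FPKM and the SPA libraries between 3684 and 4759.

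This order did not rest on a few abundant members. Without the 10 most abundant, the mean sums were 4224 in IMPA, 3923 in IMA, 3426 in SPA and 4479 in SA. The intronic lncRNAs from 0.1 to under 1 FPKM, which the selection left out, summed to 2613 ± 100, 2294 ± 174, 2033 ± 159 and 2592 ± 122 (SD, n = 5). Within a library, 693 ± 44.0 members were above their own 20-library mean on the log2 scale in IMPA, 457 ± 124 in IMA, 366 ± 95.0 in SPA and 707 ± 62.9 in SA. Seen member by member, SA was the highest group for 446 members and IMPA for 380, while SPA was the lowest for 543 and IMA for 338. The summed FPKM of the mRNAs spanned less, from 380634 ± 4730 in SPA to 399787 ± 9718 in SA. The number of members listed at 0 followed the depot instead, with 12.2 ± 3.03 per library in IMPA, 20.2 ± 5.07 in IMA, 38.8 ± 1.64 in SPA and 36.2 ± 3.70 in SA.

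Most of the 10 most abundant members had their lowest mean in SPA, as the class did. LNC_010127, the most abundant at a mean of 143 FPKM, was at 175, 171, 164, 152 and 162 FPKM in IMPA and at 131, 120, 142, 111 and 140 in IMA. It was at 111, 127, 103, 124 and 102 FPKM in SPA and at 140, 173, 171, 184 and 165 in SA. The IMPA values lay above all IMA values and the SA values above all SPA values. LNC_009897, LNC_005367, LNC_005455, LNC_008698, LNC_008451, LNC_006815 and LNC_003820 likewise had their lowest mean in SPA and a ratio of SA to SPA between 1.36 and 1.65. The highest group was not always SA as in the class, since LNC_009897, LNC_008451, LNC_006815 and LNC_003820 had higher means in IMPA than in SA. LNC_002311 and LNC_011913 did not have their lowest mean in SPA.

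LNC_002311 stood at 92.2, 74.4, 90.3, 78.6 and 80.2 FPKM in IMPA and at 32.8, 27.1, 33.8, 24.9 and 34.1 in IMA. Its SPA values were 97.0, 112, 99.8, 109 and 97.6 FPKM and its SA values 88.1, 100, 106, 107 and 98.4. Every IMA library was far below every library of the other groups, and SPA and SA overlapped. LNC_011913 was at 19.5, 26.2, 22.4, 24.2 and 22.1 FPKM in IMPA and at 41.5, 36.0, 37.9, 36.5 and 37.3 in IMA. In SPA it was at 100, 104, 79.8, 4.14 and 89.2 FPKM, and in SA at 169, 191, 185, 187 and 176. The library SPA4 was thus alone far below its group, and without it the log2 difference of SA and SPA moved from 1.80 (limma adjusted p = 0.13) to 0.96 (adjusted p = 4.6e-05) and that of IMPA and SPA from -1.14 (adjusted p = 0.25) to -1.98 (adjusted p = 3.4e-07).

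**Figure D2:**
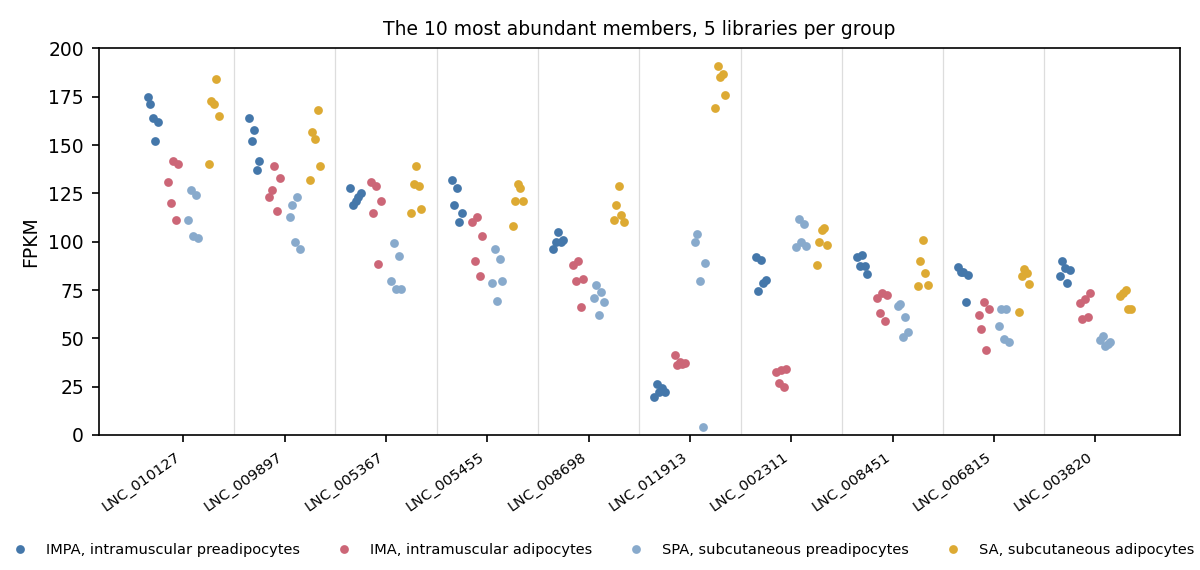
FPKM of the 10 members with the highest mean, with 1 point per library and 5 libraries per group. LNC_002311 is low in IMA alone, and LNC_011913 has a single SPA library at 4.14 FPKM beside 4 between 79.8 and 104.

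With induction of the intramuscular cells, lower members outnumbered higher ones. Differences are given on the scale of log2(FPKM + 1), which understates the change of scarce transcripts, and a transcript is called at an adjusted p under 0.05 in limma. In IMA, 200 members (18.5%) were lower than in IMPA and 48 (4.44%) were higher, while 832 did not pass. Of all transcripts tested, 20.9% were lower and 11.7% higher, so that the share of lower members was near the background and the share of higher members below it. The median difference of the members was -0.13 against -0.08 over all tested, and 311 members had a positive and 768 a negative estimate. Over the 665 members, 21 were higher and 146 lower.

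The lower members with the smallest p differed by amounts well beyond the replicate spread. LNC_002311 fell by 1.42 ± 0.10 (SE, adjusted p = 6.6e-06), to 0.368 of its IMPA level. LNC_012294 was at 8.66, 8.20, 8.88, 7.94 and 8.31 FPKM in IMPA and at 5.33, 4.30, 5.23, 4.58 and 4.90 in IMA, a log2 difference of -0.68 ± 0.06 (adjusted p = 3.8e-05). For LNC_008771 the IMPA values were 3.00, 3.86, 3.92, 3.28 and 4.13 FPKM and the IMA values 1.08, 1.37, 1.60, 1.71 and 1.24, and it fell by 0.95 ± 0.10 (adjusted p = 1.1e-04). LNC_009085 had means of 6.27 ± 0.725 and 3.05 ± 0.391 FPKM (SD, n = 5) and fell by 0.84 ± 0.09 (adjusted p = 1.4e-04). In each of these 4 members all IMA libraries were below all IMPA libraries, which their choice by the smallest p favours.

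The members that rose with the smallest p were nearly silent in the subcutaneous cells. LNC_010768 was at 37.7, 38.0, 41.4, 37.7 and 38.2 FPKM in IMPA and at 132, 137, 171, 118 and 151 in IMA, a ratio of 3.68 and a log2 difference of 1.84 ± 0.09 (SE, adjusted p = 4.2e-07). In SPA it was listed at 0.358, 0, 0.0356, 0 and 0 FPKM, and in SA at 0 in all libraries. LNC_001472 rose from 4.27, 5.90, 4.68, 4.49 and 5.73 FPKM to 29.4, 26.8, 25.7, 21.6 and 29.1, by 2.20 ± 0.10 (adjusted p = 4.7e-07). LNC_006269 rose from a mean of 7.33 ± 1.35 to 26.6 ± 2.53 FPKM (SD, n = 5) and LNC_009176 from 0.605 ± 0.118 to 3.55 ± 0.205. LNC_009176 met the threshold through IMA alone, so that its selection favoured this rise. LNC_001472 and LNC_006269 were at 0 in all 10 subcutaneous libraries, and LNC_009176 was above 0 only in SA1 and SA4, at 0.0463 and 0.0263 FPKM.

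Lower members also outnumbered higher ones with libraries scaled in other ways. With the upper quartile of the mRNAs, 51 members were higher and 143 lower (26.3% of the called members higher in place of 19.4%), and with the same FPKM sum, leaving out the transcript LNC_010228, 48 and 218 (18.0%). These were 4.72% and 13.2% of the members beside 14.5% and 16.1% of all transcripts tested with the upper quartile, and 4.44% and 20.2% beside 10.9% and 22.8% with the same sum. Centring each library on the members' own median takes the shift of the class out by construction, so the 65 higher and 99 lower members it left (39.6% higher) only tell which differ relative to the class. They were 6.02% and 9.17% of the members beside 15.2% and 11.6% of all tested. The centring moved the median of all transcripts tested from -0.08 to 0.02. A fit with Ballgown's library-size covariate, a sum of the log2 values of a library, gave 31 higher and 72 lower (30.1% higher), or 2.87% and 6.67% of the members beside 7.68% and 12.6% of all transcripts tested, so that both shares were below the background. That fit also drops the moderated variances of limma, and the parts of these 2 choices cannot be told apart.

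In the subcutaneous cells the members moved up. In SA, 280 members (25.9%) were higher than in SPA and 22 (2.04%) were lower, while 778 did not pass. The background was 14.6% higher and 11.3% lower. The median difference of the members was 0.22 against 0.00 over all transcripts tested, and 860 members had a positive and 210 a negative estimate. Over the 665 members, 193 were higher and 12 lower.

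LNC_010194 had the smallest p among the higher members. It was at 0.783, 1.38, 1.11, 1.26 and 0.968 FPKM in SPA and at 5.56, 6.54, 6.79, 5.05 and 6.65 in SA, and its log2 difference was 1.76 ± 0.11 (SE, adjusted p = 2.2e-06). LNC_000666 rose from 24.8, 23.4, 23.3, 22.9 and 22.3 FPKM to 38.7, 38.7, 45.3, 44.2 and 42.7, by 0.82 ± 0.05 (adjusted p = 2.4e-06). LNC_003074 rose from a mean of 0.441 ± 0.0521 to 1.84 ± 0.225 FPKM (SD, n = 5), and LNC_008706 from 0.394 ± 0.127 to 2.42 ± 0.417. LNC_003074 reached 1 FPKM in SA alone, so that its selection favoured a higher SA level. In all 4 members the lowest SA library was above the highest SPA library, which their choice by the smallest p favours.

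Among the few members lower in SA, LNC_001452 changed most. It was at 7.96, 16.2, 10.2, 14.1 and 11.1 FPKM in SPA and at 1.70, 1.35, 0.716, 2.42 and 1.17 in SA, and it fell by 2.39 ± 0.22 (SE, adjusted p = 3.7e-05). Its IMPA mean of 1.3 ± 0.308 and IMA mean of 0.856 ± 0.380 FPKM (SD, n = 5) were as low as the SA mean. LNC_001363 fell from 2.17 ± 0.124 to 1.12 ± 0.0827 FPKM, LNC_006603 from 5.38 ± 0.679 to 2.76 ± 0.389 and LNC_007175 from 2.17 ± 0.344 to 1.06 ± 0.179. None of these 4 overlapped between the stages, which their choice by the smallest p favours. LNC_001363 reached 1 FPKM in the subcutaneous groups alone, so that its selection favoured a high SPA level.

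The excess of higher members in SA was there with either of the other scalings, at 282 higher and 22 lower (92.8% of the called members higher, beside 92.7%) with the upper quartile of the mRNAs and 224 and 25 (90%) with the same FPKM sum. The shares were 26.1% and 2.04% beside 14.8% and 11.6% of all transcripts tested with the upper quartile, and 20.7% and 2.31% beside 11.4% and 16% with the same sum. Relative to the class itself, with libraries centred on the members' median, 100 members were higher and 103 lower (49.3% higher), a balance that the centring brings about. These were 9.26% and 9.54% of the members beside 5.57% and 32.5% of all tested. The centring moved the median of all transcripts tested from 0.00 to -0.23. In the ordinary linear model with Ballgown's covariate 18 members were higher and 6 lower (75% higher). These are 1.67% and 0.556% of the members, below the 4.20% and 2.82% of all transcripts tested in the same fit, whereas without the covariate the share of higher members was above its background. The covariate ran from 19475 to 20355 in SPA and from 20556 to 21076 in SA, so that it cannot be told apart from the stage, and how many calls went with the moderated variances was not tested.

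Proliferation markers were also highest in SA and lowest in SPA. Summed over MKI67, TOP2A, CCNB1 and RRM2, which are made in dividing cells, their FPKM was 89.0, 98.2, 87.2, 79.9 and 93.4 in IMPA and 70.1, 69.3, 85.8, 69.9 and 66.0 in IMA. In SPA it was 30.9, 29.6, 28.6, 33.1 and 32.6, and in SA 172, 169, 162, 152 and 170. No SA library overlapped with SPA, and IMA lay below IMPA except for IMA3. All 4 genes were higher in SA than in SPA, 2 of 4 were lower in IMA than in IMPA, and none was listed at 0 in a group. RRM2, a subunit of ribonucleotide reductase, was the most abundant, at 10.7 FPKM in SPA and 80.4 in SA. Whether proliferation has a part in the level of the members was not tested.

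The change with stage differed between the depots for many members. In the interaction test over the 20 libraries, 376 members (34.8%) had a more positive stage change in the subcutaneous than in the intramuscular cells and 38 (3.52%) a more negative one, against 19.8% and 11.2% of all transcripts tested. The median difference of the changes was 0.36, against 0.09 over all tested. Over the 665 members, 277 were more positive and 12 more negative. The counts were 322 and 45 with the upper quartile of the mRNAs (87.7% more positive, beside 90.8%) and 339 and 42 with the same FPKM sum. With the upper quartile these were 29.8% and 4.17% of the members beside 16.3% and 13.4% of all tested. With the same sum they were 31.4% and 3.89% beside 17.1% and 12.8%. Relative to the class, after centring on the members' median, the counts were 140 and 101 (58.1%), or 13.0% and 9.35% beside 6.31% and 28.2% of all tested, and the median of all tested moved from 0.09 to -0.25.

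LNC_004191 combined a fall in one depot with a rise in the other. It was at 6.98, 6.77, 8.59, 7.53 and 9.46 FPKM in IMPA and at 4.00, 3.75, 5.80, 4.18 and 4.56 in IMA, and at 1.60, 1.54, 1.16, 1.53 and 1.44 in SPA and 5.27, 4.96, 6.36, 4.21 and 4.59 in SA. It fell in the muscle-derived cells and rose in the subcutaneous ones, with no overlap in either, and the difference of the changes was 2.00 ± 0.15 (SE, adjusted p = 9.3e-09). LNC_012294 had a difference of the changes of 1.52 ± 0.12 (adjusted p = 1.4e-08), also with no overlap in either depot. For LNC_010194 it was 2.28 ± 0.19 (adjusted p = 2.6e-08), although its IMPA and IMA values overlapped. In the other direction stood LNC_001472, LNC_009176 and LNC_010768, which rose in IMA and were at or near 0 in SPA and SA.

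The intramuscular and the subcutaneous stage comparison share no library, so their lists can be set side by side. Lower in IMA and higher in SA were 76 members (7.04%, beside 4.12% of all transcripts tested), which is 38.0% of the 200 lower in IMA and 27.1% of the 280 higher in SA. Higher in both were 14 members (29.2% of the 48 and 5.00% of the 280), lower in both 5 (2.50% of the 200 and 22.7% of the 22), and higher in IMA but lower in SA 2 (4.17% of the 48 and 9.09% of the 22). These 3 patterns took in 1.3%, 0.463% and 0.185% of the members, below the 2.38%, 3.88% and 1.63% of all transcripts tested. Called in neither were 627 members (58.1%, beside 53.4% of all tested). By the sign of the estimate alone, 633 members (58.6%) were negative in the intramuscular and positive in the subcutaneous cells, beside 29.4% of all transcripts tested, while 227 were positive in both, 133 negative in both and 76 positive and then negative. These last 3 sign patterns held 21.0%, 12.3% and 7.04% of the members, beside 21.4%, 30.1% and 18.3% of all transcripts tested. Over the 665 members, 68 were lower in IMA and higher in SA (10.2%), 10 higher in both, 2 lower in both, 1 higher in IMA but lower in SA and 374 called in neither, and 432 were negative and then positive by sign.

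**Figure D3:**
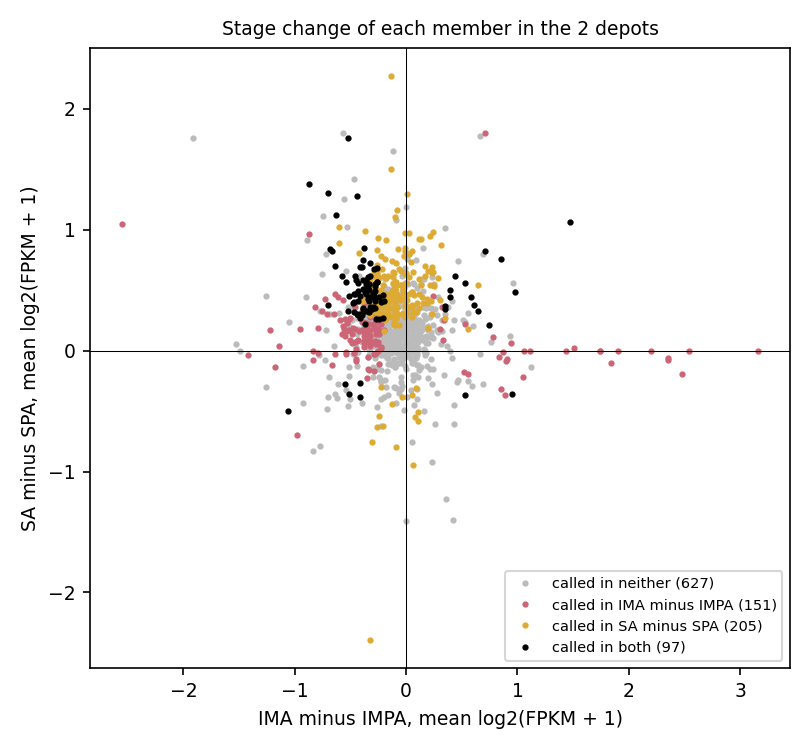
Each point is 1 of the 1080 members, placed by its difference of IMA and IMPA (horizontal) and of SA and SPA (vertical) in mean log2(FPKM + 1) over 5 libraries per group and coloured where the adjusted p is under 0.05 in either comparison or in both. Most points, 633 members, lie at the upper left, with a negative difference of IMA and IMPA and a positive one of SA and SPA.

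Before induction, the intramuscular cells held more of the class. In IMPA, 448 members (41.5%) were higher than in SPA and 128 (11.9%) lower, while 504 did not pass. Of all transcripts tested 29.3% were higher and 21.6% lower. The median difference was 0.25 against 0.06 over all tested, and 782 members were positive and 298 negative. Over the 665 members, 279 were higher and 68 lower. With the upper quartile of the mRNAs, 398 were higher and 139 lower (74.1% of those called higher, beside 77.8%), which is 36.9% and 12.9% beside 26.4% and 24.4% of all tested. Relative to the class, by centring on the members' median, 256 were higher and 197 lower (56.5%), or 23.7% and 18.2% beside 18.3% and 32.2%, and the median of all tested moved from 0.06 to -0.13.

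Some of the higher members were found almost only in the muscle-derived cells. LNC_010768 had a difference of 5.21 ± 0.09 (SE, adjusted p = 4.0e-11). LNC_011106 was at 20.5, 21.5, 26.2, 20.4 and 25.5 FPKM in IMPA and at 0.0359, 0, 0, 0 and 0.0377 in SPA, a difference of 4.55 ± 0.08 (adjusted p = 4.8e-11). LNC_007232 was at 14.3, 12.8, 17.5, 14.4 and 14.9 FPKM in IMPA and at 0.0402, 0, 0.0155, 0 and 0 in SPA, and LNC_001543 had means of 6.78 ± 0.783 and 0.0198 ± 0.0308 FPKM (SD, n = 5). No ratio is given for these members, since the subcutaneous values are at or close to 0. Their stage changes differed, since LNC_011106 rose in IMA by 0.94 ± 0.10 (adjusted p = 9.5e-05) and LNC_001543 by 0.87 ± 0.09 (adjusted p = 1.1e-04), whereas LNC_007232 was at 14.8 ± 1.71 FPKM in IMPA and 14.3 ± 1.88 in IMA (adjusted p = 0.77).

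The 4 members lower in IMPA with the smallest p were still listed in every IMPA library. LNC_006164 was at 29.5, 28.8, 28.6, 27.7 and 26.6 FPKM in IMPA and at 81.2, 87.1, 68.5, 78.1 and 70.1 in SPA, a ratio of 0.367 and a difference of -1.41 ± 0.07 (SE, adjusted p = 4.0e-08). LNC_002246 was at 13.0, 15.0, 12.6, 13.4 and 10.5 FPKM in IMPA and at 58.1, 63.6, 48.2, 50.6 and 53.7 in SPA, a ratio of 0.235. LNC_006046 had means of 1.18 ± 0.157 and 4.62 ± 0.415 FPKM (SD, n = 5), and LNC_001363 of 0.390 ± 0.0956 and 2.17 ± 0.124. In all 4 the highest IMPA library was below the lowest SPA library, which their choice by the smallest p favours. For LNC_001363, which reached 1 FPKM in SPA and SA alone, the selection favoured this difference.

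After induction the order of the depots was the other way round for the class. In IMA, 306 members (28.3%) were lower than in SA and 96 (8.89%) higher, while 678 did not pass. Of all transcripts tested 27.1% were lower and 19.3% higher, so the share of lower members was near the background and that of higher members below it. The median difference was -0.18 against -0.09 over all tested, and 322 members were positive and 757 negative. Over the 665 members, 35 were higher and 200 lower. With the upper quartile of the mRNAs, 98 were higher and 302 lower (24.5% of those called higher, beside 23.9%), which is 9.07% and 28.0% beside 19.5% and 26.6% of all tested. Relative to the class, by centring on the members' median, 143 were higher and 205 lower (41.1%), or 13.2% and 19.0% beside 24.3% and 17.2%, and the median of all tested moved from -0.09 to 0.06.

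The members restricted to the muscle-derived cells before induction were so after it. LNC_010768 had a difference of 7.15 ± 0.09 (SE, adjusted p = 1.0e-12), with every SA library at 0. LNC_011106 was at 49.4, 45.8, 47.2, 36.2 and 44.3 FPKM in IMA and at 0.0371, 0.128, 0, 0.126 and 0 in SA. LNC_006269 and LNC_001472 both differed by 4.78, with SE of 0.07 and 0.08. On the lower side, LNC_002246 was at 19.3, 14.2, 12, 14.9 and 16.5 FPKM in IMA and at 84.5, 90.0, 102, 80.5 and 88.1 in SA, and LNC_006164 at 24.6 ± 2.55 against 103 ± 12.1 FPKM (SD, n = 5). LNC_011913 had a ratio of 0.208, with IMA values of 36.0 to 41.5 and SA values of 169 to 191 FPKM.

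**Figure D4:**
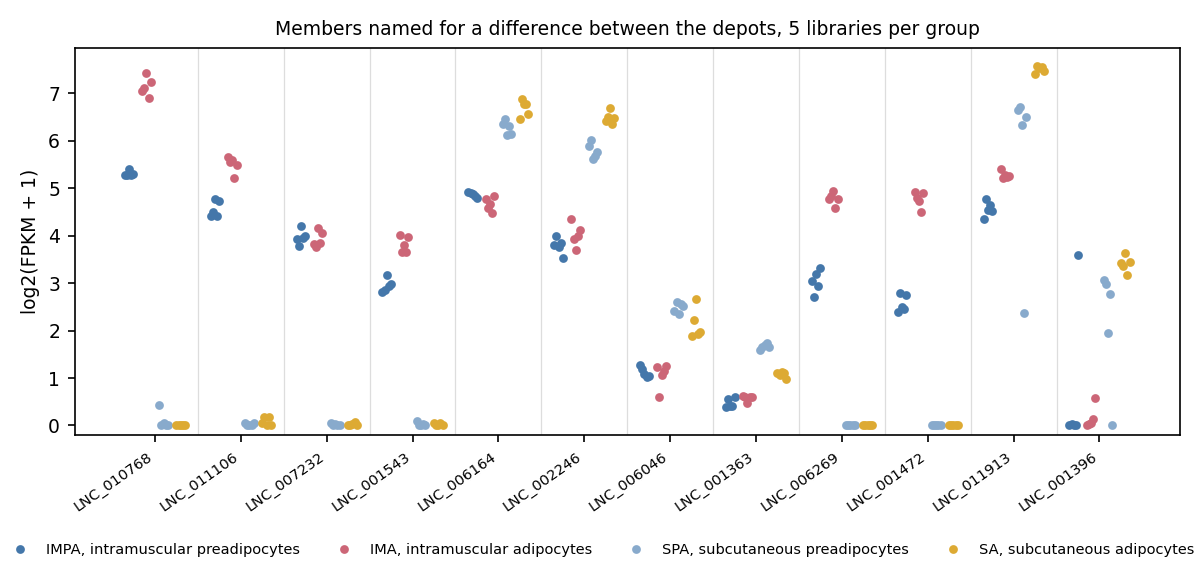
Members named for a difference between the depots, as log2(FPKM + 1) with 1 point per library and 5 libraries per group. LNC_010768, LNC_011106, LNC_007232, LNC_001543, LNC_006269 and LNC_001472 are at or near 0 in SPA and SA, LNC_006164, LNC_002246, LNC_006046 and LNC_001363 are higher in the subcutaneous groups, and LNC_011913 and LNC_001396 each have single preadipocyte libraries far from their group.

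Over all members, 71 had a mean of at least 1 FPKM in both intramuscular groups and under 1 in both subcutaneous groups, and 52 were the reverse. The median level of the 71 was 2.07 FPKM in their own depot and 0.632 in the other, and 21 of them were under 0.1 FPKM in both subcutaneous groups. Of the 52, whose medians were 1.68 and 0.733 FPKM, 1 was under 0.1 FPKM in both intramuscular groups. Of all transcripts tested, 5.33% were intramuscular and 2.71% subcutaneous in this sense, beside 6.57% and 4.81% of the members, and under 0.1 FPKM in both groups of the other depot were 1.74% and 0.168%, beside 1.94% and 0.0926%. These subsets were formed on the levels themselves and are described without a test.

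Skeletal muscle markers separated the same depots. The list held PAX7 and MYF5 of muscle progenitors, MYOD1 and MYOG, which drive muscle differentiation, and contractile or metabolic genes such as DES, ACTA1, CKM, MYLPF and TNNT3, and 9 of 10 genes were found. All 9 were higher in IMPA than in SPA and in IMA than in SA, and 6 were higher and 1 lower in IMA than in IMPA. Their summed FPKM was 2532, 2561, 2879, 2764 and 2919 in IMPA and 8488, 8979, 8790, 9042 and 9098 in IMA. In SPA it was 18.7, 6.50, 7.69, 6.96 and 7.40, and in SA 8.55, 8.66, 7.25, 8.28 and 8.20. The level of a gene is that of its transcript with the highest mean. MYLPF was the most abundant. By that transcript PAX7 and MYOD1 were at 0 in all SPA libraries and PAX7 and CKM in all SA libraries, although all transcripts of PAX7 together reached 0.0443 FPKM in SPA1. SPA1, with the highest sum among the subcutaneous libraries, was also the SPA library with the most LNC_010768, at 0.358 FPKM. The part of muscle cells in the depot differences of the members was not tested.

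The cells labelled adipocytes held little RNA of adipocyte markers. Of 8 such genes, 7 were found, and PPARG, ADIPOQ, PLIN1, LPL and LEP had means under 1 FPKM over the 20 libraries. The summed level of the list was 11.3 ± 0.485 FPKM in IMPA, 11.1 ± 0.464 in IMA, 6.59 ± 0.296 in SPA and 7.26 ± 1.22 in SA (SD, n = 5), and CEBPA, a transcription factor of fat cell differentiation, was the most abundant. CEBPA was lower in IMA than in IMPA, lower in SA than in SPA and higher in the intramuscular cells at both stages. CD36, a fatty acid transporter, was higher in IMA, at 3.94 FPKM, than in IMPA, at 0.0921, and than in SA, at 0.591, with no call between SA and SPA (adjusted p = 0.12). That transcript of CD36 was at 0 in SPA. All CD36 transcripts together came to between 0.0504 and 0.117 FPKM in SPA and between 0.518 and 1.44 in SA, a sum that was not tested. Some of the scarce genes had a higher mean in SA than in SPA, namely LPL at 1.24 ± 0.187 and 0.533 ± 0.0529 FPKM, PPARG at 1.03 ± 0.252 and 0.624 ± 0.131 and PLIN1 at 0.226 ± 0.0709 and 0.128 ± 0.0384, which were too scarce to be tested. ADIPOQ was at 0.257 ± 0.143 FPKM in SA and 0.234 ± 0.109 in SPA, and LEP at 0 and 0.0143. In the intramuscular cells LPL was at 0.922 FPKM in IMPA and 0.839 in IMA, PPARG at 0.475 and 0.364 and PLIN1 at 0.239 and 0.263. Of 6 stromal progenitor markers, 4 were tested and all 4 were lower in the intramuscular cells at both stages, all 4 were lower in SA than in SPA and 1 was lower in IMA than in IMPA. Among them was DCN, a matrix proteoglycan, at 260 FPKM in IMPA and 3852 in SPA by its most abundant transcript, and at 548 to 809 and 5282 to 5643 over all its transcripts. None of 4 endothelial markers reached a mean of 1 FPKM. Of 4 blood and immune markers only CD68 did, which marks macrophages, and it was at 0.587 FPKM in IMPA, 0.989 in IMA, 2.27 in SPA and 1.23 in SA.

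On the scale of log2(FPKM + 1), the differences of the members were spread more narrowly around their median than those of the mRNAs. The interquartile range of the members was 0.32 for IMA against IMPA, 0.36 for SA against SPA, 0.52 for IMPA against SPA and 0.46 for IMA against SA. For the 16706 mRNAs tested the ranges were 0.45, 0.41, 0.69 and 0.68. The added 1 FPKM itself narrows the spread of scarce transcripts, and most members were scarce. With a pseudocount of 0.1 no range of the members was below these values of the mRNAs. Ranges of the mRNAs with that pseudocount are not given, so how much of the narrower spread comes from the scale is open. Such narrow ranges were not peculiar to the members, since they were 0.30, 0.37, 0.51 and 0.44 for the annotated miscellaneous RNAs and 0.34 for the annotated lncRNAs in SA against SPA. The median of the members was displaced from 0 by -0.13, 0.22, 0.25 and -0.18, where that of the mRNAs was at -0.07, -0.00, 0.05 and -0.08. The quartiles of the members were -0.29 and 0.03 for IMA against IMPA and 0.04 and 0.40 for SA against SPA, where 79.6% of the members were positive. The displacement was not shared by every member, since the differences ran from -2.39 to 2.27 for SA against SPA and from -2.55 to 3.16 for IMA against IMPA. Whether RNA of unspliced origin has a part in the shared shift was not tested.

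**Figure D5:**
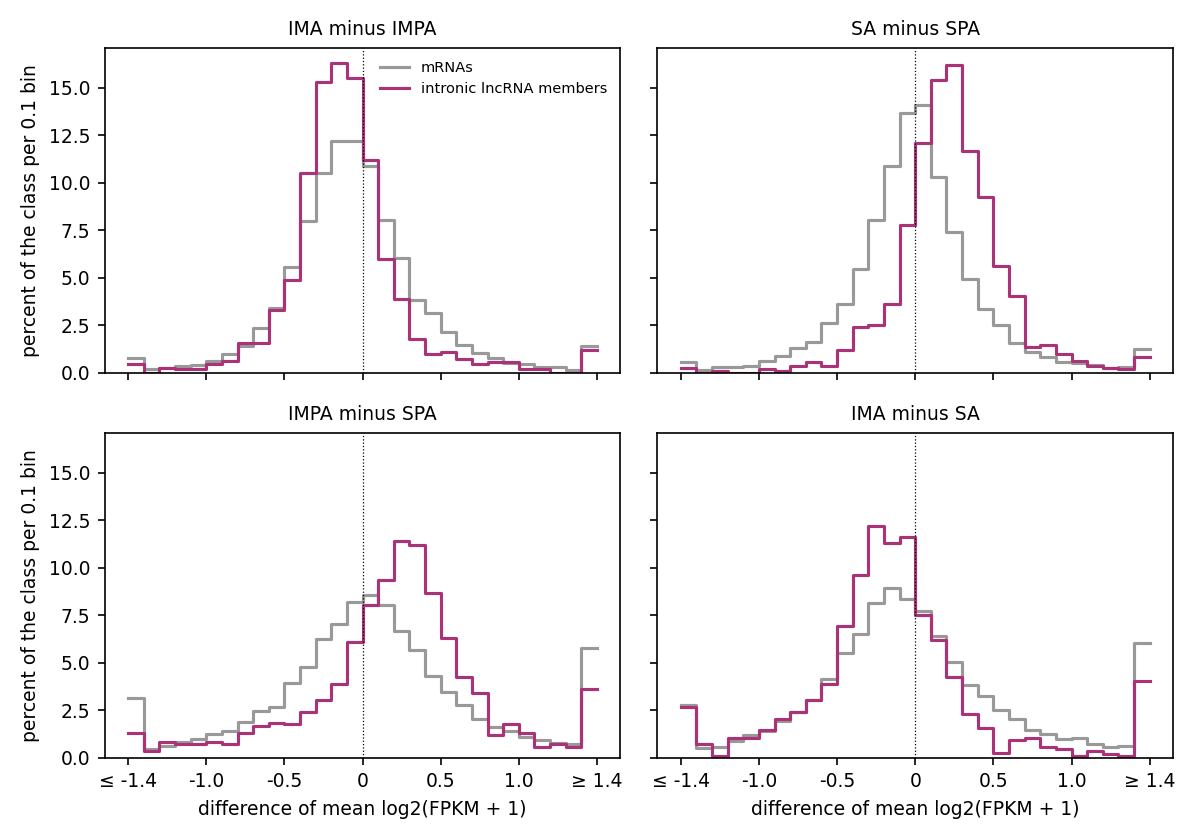
Distribution of the differences in mean log2(FPKM + 1) in bins of 0.1, as the percent of the 1080 members and of the 16706 tested mRNAs, for each comparison of 2 groups of 5 libraries, with all larger differences in the outermost bins. The members peak to the right of the mRNAs for SA minus SPA and for IMPA minus SPA.

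The displacement had the same direction at each level of abundance, and the ratios to SPA were somewhat larger in abundant members. The median ratio of SA to SPA was 1.28 for the 617 members from 1 to under 2 FPKM, 1.29 for the 304 from 2 to under 5, 1.36 for the 120 from 5 to under 20 and 1.43 for the 39 above. For IMPA to SPA it was 1.28, 1.3, 1.36 and 1.42, for IMA to IMPA 0.875, 0.851, 0.827 and 0.831, and for IMA to SA 0.836, 0.827, 0.838 and 0.783. In mRNAs of the same levels the median ratio was 0.993, 0.981, 0.988 and 1.03 for SA to SPA, 1.05, 1.03, 1.03 and 1.06 for IMPA to SPA, 0.961, 0.938, 0.923 and 0.949 for IMA to IMPA, and 0.958, 0.925, 0.923 and 0.934 for IMA to SA. Among the 39 most abundant members, 34 had a higher mean in SA than in SPA and 34 a lower one in IMA than in IMPA.

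The narrower spread of the members did not hold at every level. Of the members from 1 to under 2 FPKM the quartiles of the ratio of SA to SPA were 1.05 and 1.48, beside 0.741 and 1.33 for mRNAs of that level. From 20 FPKM they were 1.31 and 1.58 beside 0.901 and 1.18. From 5 to under 20 FPKM, however, the quartiles of the members lay farther apart by their ratio, at 1.07 and 1.56 beside 0.856 and 1.15. The quartiles of IMPA to SPA and of IMA to SA were also farther apart in the members at that level, at 1.03 and 1.83 beside 0.810 and 1.32 and at 0.639 and 1.15 beside 0.735 and 1.19.

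Scarcer intronic lncRNAs leaned the same way. Of the 6723 with a mean from 0.1 to under 1 FPKM, 35.1% had a positive difference of IMA and IMPA, 68.9% of SA and SPA, 68.2% of IMPA and SPA and 38.3% of IMA and SA, beside 28.8%, 79.6%, 72.4% and 29.8% of the members. Their medians of -0.05, 0.07, 0.09 and -0.06 are smaller, as the added 1 FPKM shrinks differences at this level. Among the other classes, the 112 annotated miscellaneous RNAs had medians of -0.14, 0.12, 0.16 and -0.17, and the 360 annotated lncRNAs had 0.05, -0.00, -0.08 and -0.05. The 108 long intergenic lncRNAs, with 0.10 for SA against SPA, lay between members and mRNAs there. Over the comparisons in the same order they had -0.08, 0.10, 0.21 and -0.08. The 48 antisense lncRNAs had -0.05, 0.09, 0.18 and -0.09.

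Within groups, replicate libraries also differed in the level of the class as a whole. The median log2 deviation of the members from their own means ran from -0.24 in SPA3 to -0.03 in SPA2 and from -0.16 in IMA4 to 0.05 in IMA3, while that of the mRNAs stayed between -0.01 and 0.01 in SPA and between -0.06 and -0.02 in IMA. The first principal component of the within-group deviations held 12.2% of the variance for the members and 18.9% for the 159 members from 5 FPKM. It held 7.77% for the mRNAs and 8.76% for those from 5 FPKM, but 30.4% for the annotated lncRNAs and 27.8% for the long intergenic ones. With 16 components left after the group means are taken out, equal ones would hold 6.25% each. A class of fewer transcripts gives a larger first share by noise alone, so these shares are not comparable between classes of unequal size.

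Members of a common locus did not move together more than other members in most comparisons. Of 190 pairs of members within a locus, 54.2% had the same sign of difference for IMA against IMPA, 57.9% for SA against SPA, 72.1% for IMPA against SPA and 56.8% for IMA against SA. Among all pairs of members these shares were 59.0%, 67.6%, 60% and 58.1%. The share within loci was the larger one for IMPA against SPA alone.

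Genes of the splicing machinery differed with the stage of the intramuscular cells. Of 44 genes of the spliceosome core, 28 were lower (63.6%) and 1 higher in IMA than in IMPA, with a median difference of -0.23 against -0.08 over all transcripts tested, of which 20.9% were lower and 11.7% higher. In SA against SPA 8 were higher (18.2%) and 3 lower (6.82%), near the 14.6% and 11.3% of all tested, with a median of -0.00. Summed over the 44 genes, the level was 1324, 1414, 1362, 1383 and 1349 FPKM in SPA and 1468, 1503, 1530, 1441 and 1436 in SA, with every SA library above every SPA library, and 1526 ± 64.5 in IMPA and 1297 ± 50.7 in IMA (SD, n = 5). SNRNP70, a protein of the U1 particle that binds the start of introns, was at 47.7 FPKM in IMPA, 30.4 in IMA, 37.5 in SPA and 44.6 in SA, and U2AF1, which recognises their end, was at 38.0, 25.5, 36.0 and 32.2. Of 13 SR proteins, which help to define exons, 4 were lower in IMA than in IMPA (30.8%), and 2 were higher and 2 lower in SA (15.4% each, median -0.17). SRSF3 was at 101, 57.6, 73.1 and 85.9 FPKM in the order IMPA, IMA, SPA and SA. In the interaction, 20 of the 44 spliceosome genes (45.5%) and 4 of the 13 SR proteins (30.8%) had a more positive change in the subcutaneous cells, beside 19.8% of all tested.

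Genes that act on introns after splicing also differed. Of 21 genes of intron turnover and nuclear RNA decay, 13 (61.9%) were lower in IMA than in IMPA (median -0.24). Of all transcripts tested, 20.9% were lower. In SA against SPA 1 was higher (4.76%) and 2 were lower (9.52%), with a median of -0.02, beside 14.6% and 11.3% of all tested. In IMA 1 was higher (4.76%) and 10 were lower (47.6%) than in SA (median -0.20), beside 19.3% and 27.1% of all tested. In IMPA 5 were higher (23.8%) and 1 lower (4.76%) than in SPA (median 0.09), beside 29.3% and 21.6%. By the interaction 11 (52.4%) had a more positive change in the subcutaneous cells, beside 19.8%. EXOSC10, a nuclease of the nuclear exosome, was at 16.7 FPKM in IMPA and 12.2 in IMA, and its exosome partner EXOSC6 at 11.4 and 6.76. Of 29 genes of RNA polymerase II and elongation, 13 (44.8%) were lower in IMA (median -0.13), beside 20.9% of all tested. In SA 6 were higher and 6 lower (20.7% each, median -0.03), beside 14.6% and 11.3%. By the interaction 10 (34.5%) had a more positive and 2 (6.90%) a more negative change, beside 19.8% and 11.2%. Between depots, 15 spliceosome genes were higher (34.1%) and 5 lower (11.4%) in IMPA than in SPA (median 0.08), beside 29.3% and 21.6%. In IMA 1 was higher (2.27%) and 21 were lower (47.7%) than in SA (median -0.16), beside 19.3% and 27.1%. Whether these genes have a part in the level of the members was not tested. Of 9 housekeeping genes, 5 (55.6%) were lower and 1 higher in IMA (median -0.21, close to that of the spliceosome genes), and 3 were higher and 3 lower in SA (median -0.03), and none of 4 nuclear-retained lncRNAs (NEAT1, MALAT1, MEG3, KCNQ1OT1) was found by symbol.

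For 26 members the study's lists name protein-coding genes close by. The lists at hand are shortened and hold members that the study chose for differences in these same samples, so what follows is no independent evidence and does not stand for the other members. It is not known which of the genes, if any, is the host. The most abundant listed gene had the sign of its member for 20 of the 26 in IMA against IMPA, for 21 in SA against SPA and for 16 in both, by the estimates and with no test.

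Several of these members had the profile of a neighbour. LNC_004191 is listed beside PSAT1, an enzyme of serine synthesis, which was at 194 ± 19.3 FPKM in IMPA, 122 ± 15.5 in IMA, 47.9 ± 1.57 in SPA and 123 ± 5.98 in SA (SD, n = 5), while the member was at 7.87, 4.46, 1.45 and 5.08. LNC_000666 is listed beside PTMA, a small nuclear protein of growing cells, at 480 ± 55.3, 354 ± 27.3, 318 ± 33.7 and 495 ± 55.6 FPKM, and the member was at 39.6, 24.9, 23.3 and 41.9. The member and the gene have the same order of group means in both pairs, from IMPA over SA and IMA to SPA for LNC_004191 and PSAT1, and from SA over IMPA and IMA to SPA for LNC_000666 and PTMA. The IMA and SA means of PSAT1 differ by less than their SD. CEP78, also listed for LNC_004191, was at 3.52, 2.80, 1.59 and 4.70 FPKM in IMPA, IMA, SPA and SA. It was thus highest in SA, and it did not pass for IMA against IMPA (limma adjusted p = 0.14). Of the 4 genes listed for LNC_000666, COPS7B (adjusted p = 0.17 and 0.85) and PDE6D (adjusted p = 0.076 and 0.07) passed in neither stage comparison, and their IMA means were above those of IMPA. LNC_006603 is listed beside SULF1, which trims sulfate from heparan sulfate, at 22.0, 14.9, 93.1 and 37.3 FPKM, with the member at 1.53, 1.04, 5.38 and 2.76.

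A cell-cycle gene and a muscle gene stood beside others. LNC_008706 is listed near 7 genes, among them TOP2A, the topoisomerase that untangles replicated DNA, at 31.0 ± 3.59, 32.0 ± 2.44, 10.9 ± 0.922 and 57.2 ± 3.03 FPKM, and the member was at 1.22, 1.24, 0.394 and 2.42. Of the other genes near LNC_008706, IGFBP4 (-0.54, adjusted p = 3.3e-04) and RARA (-0.90, adjusted p = 8.8e-05) were lower in SA than in SPA. LNC_001472 is listed near TPM3, a tropomyosin, at 37.3 ± 2.17 FPKM in IMPA, 414 ± 40.1 in IMA, 0.244 ± 0.334 in SPA and 0 in SA. The member rose in IMA and was at 0 in the subcutaneous cells. Other genes of its list did not share this, such as the ribosomal protein gene RPS27 at 1254, 1335, 1302 and 1558 FPKM.

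Other members did not resemble all of their neighbours. LNC_001452 is listed in a cluster of S100 genes, which code for small calcium-binding proteins. S100A4 was at 40.3 ± 3.59 FPKM in IMPA, 30.2 ± 4.71 in IMA, 471 ± 57.6 in SPA and 63.7 ± 13.2 in SA and so was high in SPA like the member, but S100A2 was at 160, 1162, 35.1 and 16.7. LNC_010638 and LNC_010639, of the same locus and chosen after their values were seen, share their list of genes but not their group means. LNC_010638 was at 3.85 ± 3.39, 4.62 ± 2.34, 3.52 ± 3.83 and 1.78 ± 2.27 FPKM (SD, n = 5) in IMPA, IMA, SPA and SA, and LNC_010639 at 6.33 ± 3.94, 1.35 ± 3.02, 4.56 ± 5.04 and 10.6 ± 0.926, and neither passed the test of a stage change. The IMA mean of LNC_010639 rested on IMA2 alone, at 6.75 FPKM, with the other IMA libraries at 0. In IMA2, LNC_010638 had its lowest IMA value, 0.660 FPKM. In many libraries one was high where the other was low. LNC_010638 and LNC_010639 were at 9.76 and 0 FPKM in IMPA3, 8.33 and 0 in SPA1, and 0.00618 and 10.3 in SPA4. Both were present in others, such as SA2 at 5.09 and 10.4. How the signal of the locus was divided between them was not tested, so their means cannot be read as separate levels. LAMTOR4, the most abundant gene in the list of these members, was at 158, 119, 188 and 192 FPKM.

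Of the members that the study names, those of this paragraph differed between the depots, and some of them had no called stage change. LNC_011764 and LNC_011765, of the same locus, were at 12.6 ± 1.36 and 2.41 ± 0.301 FPKM in IMPA and at 1.18 ± 0.168 and 0.234 ± 0.143 in SPA (SD, n = 5). LNC_010010 was at 20.6, 20, 22.8, 18.9 and 22.7 FPKM in IMPA and at 2.07, 3.24, 1.68, 2.78 and 2.48 in SPA, and its difference was 2.69 ± 0.12 (SE, adjusted p = 2.9e-08). None of these 3 passed the test of either stage comparison. LNC_007731 was at 1.28 ± 0.0934, 0.713 ± 0.0754, 2.56 ± 0.198 and 3.28 ± 0.0842 FPKM in IMPA, IMA, SPA and SA, with no overlap between any of the groups compared, and it fell in IMA by 0.41 ± 0.07 (SE, adjusted p = 0.001). Its difference of SA and SPA, 0.27 ± 0.06 (adjusted p = 0.011), no longer passed in the ordinary linear model with Ballgown's covariate, and was 0.04 when libraries were centred on the members' median. With the replicate number as a block this difference stayed at 0.27 but did not pass. LNC_000622 was at 2.11 ± 0.387, 1.86 ± 0.176, 4.04 ± 0.463 and 4.44 ± 0.431 FPKM and was lower in the intramuscular cells at both stages.

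A few members rested on single libraries. LNC_009810, which the study also names, was at 60.3 FPKM in SA4 and at 0.00504 or less in each of the other 19 libraries. It passed in neither depot comparison, and without SA4 its difference of SA and SPA moved from 1.19 to 0.00. LNC_001396 was at 9.67, 9.33, 11.4, 7.96 and 9.92 FPKM in SA and at 0.00427, 0.0216, 0.0365, 0.0941 and 0.501 in IMA, a difference of IMA and SA of -3.25 ± 0.13 (SE, adjusted p = 1.3e-08). It was at 0.000744, 0.0226, 0.00412, 0.00324 and 11.0 FPKM in IMPA and at 7.35, 6.85, 2.89, 5.88 and 0.00289 in SPA. IMPA5 was thus alone high and SPA5 alone low in its group, while the summed muscle markers of these libraries, 2919 and 7.40 FPKM, lay with those of their own groups. The difference of IMPA and SPA was -1.43 (adjusted p = 0.18), and it was -2.15 without IMPA5 (adjusted p = 0.014) and -1.97 without SPA5 (adjusted p = 0.058). The difference of SA and SPA was 1.25 (adjusted p = 0.12) and moved to 0.71 without SPA5 (adjusted p = 0.05). In all, 2 members had over 50% of their FPKM in 1 library.

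At the other end, some members hardly varied. The smallest coefficient of variation over the 20 libraries was 9.42%, in LNC_003252, which lay between 7.78 and 11.0 FPKM, against a median of 31.0% and a highest value of 447%. It was followed by LNC_003813 at 10.6%, LNC_006799 at 11.1% and LNC_009846 and LNC_008231 at 11.4%. LNC_003813, LNC_009846 and LNC_008231 passed none of the tests. LNC_003252 had a difference of IMA and IMPA of -0.26 ± 0.06 (SE, adjusted p = 0.0094), which was -0.15 and no longer passed when libraries were centred on the members' median. With Ballgown's covariate it was -0.19 and did not pass either. The difference of IMPA and SPA of LNC_003252, 0.19 ± 0.06 (adjusted p = 0.018), was -0.00 with that centring. This call was also lost with the upper quartile of the mRNAs, at 0.13. With Ballgown's covariate or with the replicate number as a block, the value stayed at 0.19 but did not pass.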

How the data were processed

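The authors aligned reads to the goat genome ARS1 with HISAT2 2.0.4, assembled lncRNAs with Scripture and Cufflinks, kept those with several exons and no coding potential, and deposited FPKM values per transcript computed with StringTie 1.3.1 and Ballgown. The tables hold no counts, so the number of reads behind a value cannot be computed from them. Library FPKM sums ran from 527426 to 596669.

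The 18414 transcripts averaging 1 FPKM or more were tested on log2(FPKM + 1) without further scaling, by limma 3.58.1 in R 4.3.3 with a variance trend, in fits of 10 libraries per comparison and 20 for the interaction, two-sided, with Benjamini-Hochberg adjustment over all of them. The steps were tested on simulated data. Descriptions used Python 3.11.15 with numpy 2.4.6 and pandas 2.3.3, and matplotlib 3.10.9.

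Members and lists were chosen with earlier results of these data known, and the muscle and proliferation markers overlap genes that the study picked from these libraries. For a gene, its transcript with the highest mean was used. Named members are the 10 most abundant, the 4 higher and 4 lower with the smallest p per comparison (3 for the interaction), those the paper names, 3 on each side of the threshold and the 5 with the smallest coefficient of variation. Alternatives were other filters, pseudocounts, scalings, centring, variance models, samples, a replicate block and leaving out each library.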

Additional observations from a re-analysis of the deposited data

Results flagged for a closer look

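Libraries far from the others of their group were looked for in 202 sets of 5, over the class measures and 47 named members, with Dixon's criterion, which chance meets in about 1 of 20 sets. It was met 15 times. LNC_010228 held 23.6% of the FPKM in SA1, less than in the other SA libraries. Low beside their groups were LNC_001363 in IMA3 at 0.397 FPKM, LNC_006815 in IMPA4 at 68.9, LNC_009085 in SA2 at 3.26 and LNC_011913 in SPA4 at 4.14. High beside their groups were LNC_001396 in IMPA5 at 11.0 and in IMA5 at 0.501 FPKM, LNC_003813 in IMA3 at 6.85, LNC_008771 in SPA2 at 2.63, LNC_010194 in IMPA2 at 6.50, LNC_010768 in IMPA3 at 41.4 and in SPA1 at 0.358, and LNC_009810 in SA4 at 60.3. For LNC_009810, IMPA5 was also the only IMPA library above 0, at 0.00283 FPKM, and SPA5 the only SPA one, at 0.00192. The cause was not tested for any of these.

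The stage change differed between the depots, by the interaction test in limma, for 376 members with a more positive change in the subcutaneous cells and 38 with a more negative one. These are 34.8% and 3.52% of the members, beside 19.8% and 11.2% of all transcripts tested. Among the 47 named members, 32 differed, a number that follows in part from how they were picked, since many were named for small p values in these libraries. The subcutaneous minus the intramuscular change on the log2(FPKM + 1) scale was 2.28 for LNC_010194, 2.00 for LNC_004191, 1.52 for LNC_012294, 1.49 for LNC_000666, 1.38 for LNC_002311, 1.28 for LNC_008706, 1.13 for LNC_008771, 1.03 for LNC_008698, 0.95 for LNC_003074, 0.94 for LNC_006815, 0.91 for LNC_010127 and 0.90 for LNC_008451. It was 0.86 for LNC_003820, 0.84 for LNC_009085, 0.83 for LNC_005455, 0.68 for LNC_007731, 0.68 for LNC_009897, 0.66 for LNC_005367, 0.61 for LNC_006164, 0.46 for LNC_002246, 0.46 for LNC_011678 and 0.31 for LNC_003252. More negative in the subcutaneous cells were -2.20 for LNC_001472, -2.07 for LNC_001452, -1.94 for LNC_010768, -1.74 for LNC_006269, -1.48 for LNC_009176, -0.88 for LNC_001543, -0.88 for LNC_011106, -0.69 for LNC_001363, -0.46 for LNC_006603 and -0.41 for LNC_007175. Of these, LNC_001472, LNC_010768, LNC_006269, LNC_009176, LNC_001543 and LNC_011106 are at or near 0 in SPA and SA, so that their values restate the rise in IMA.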

How the results depend on the processing

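Settings are compared by the members called and by the median and interquartile range of their log2 differences, and no cause was tested beyond what a setting itself removes. With each library centred on the members' median, which takes the class movement out by construction, lower members in IMA against IMPA were 99 (median -0.03), higher and lower in SA against SPA 100 and 103 (median -0.01), in IMPA against SPA 256 and 197 (0.05), and in the interaction 140 and 101 (0.03). The median of IMA against SA became -0.04. In an ordinary linear model with Ballgown's covariate, which also drops the moderated variances, the counts were 31 and 72 in IMA against IMPA and 18 and 6 in SA against SPA, with a median of 0.12. Counting only the 665 members at 1 FPKM in each group, which leaves fewer members and takes out those low in a group, gave 21 higher in IMA against IMPA, 12 lower in SA against SPA, 279 and 68 in IMPA against SPA, 35 and 200 in IMA against SA, and 12 more negative in the interaction.

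A pseudocount of 0.1, which shrinks low values less, gave medians of -0.21, 0.35, 0.38, -0.26 and 0.57 for IMA against IMPA, SA against SPA, IMPA against SPA, IMA against SA and the interaction, and interquartile ranges of 0.49, 0.53, 0.79, 0.68 and 0.72. Intronic lncRNAs from 0.1 to under 1 FPKM had ranges of 0.20, 0.19, 0.25, 0.26 and 0.29. With upper-quartile scaling of the mRNAs the summed FPKM of IMPA was 5077 in place of 5245. Leaving out each library in turn, the range was 0.51 to 0.55 for IMPA against SPA, 0.45 to 0.48 for IMA against SA and 0.49 to 0.53 for the interaction, members higher in SA were 196 to 269 and lower in IMA against IMPA 145 to 221. The 196 came without SPA3 (18.1% beside 12.6% of all tested) and the 269 without SA4 (24.9% beside 13.8%). The 145 came without IMA4 (13.4% beside 18.4%) and the 221 without IMA3 (20.5% beside 20.9%).

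Libraries with the same replicate number did not deviate together (correlations from -0.041 to 0.059). Such low values show no pairing by number, but they cannot exclude that the numbers stand for the goats. With the number as a block, 180 members were higher in SA in place of 280, and no other count of calls moved by over 1.5 times. The 180 were 16.7% of the members beside 11.2% of all transcripts tested, in place of 25.9% beside 14.6%.

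For the named members, 2999 of 3077 values over all settings kept direction and side of the threshold, 64 lost the call, 10 gained it and 4 reversed. All 4 came with centring on the members' median, which shifts all transcripts of a library alike and so turns small differences over, LNC_003252 at -0.17 for SA against SPA, -0.00 for IMPA against SPA and -0.02 for the interaction, and LNC_006799 at -0.27 for the interaction. Mapped reads were most numerous in the IMPA libraries. Since FPKM tables hold no counts, how far depth limits the scarce members is unknown.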
